A study of Mus musculus with 13 samples.

Results

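Psmb11, Prss16, Ctsl, Ly75, Tbata and Cd83 are genes that cortical thymic epithelial cells (TEC) are known for, and their RNA was followed here from mouse embryonic fibroblasts (MEF) through cultures programmed by Foxn1 to TEC of the fetal thymus. The 6 genes were taken by symbol from the 24394 genes of the count table. All 6 were among the 17004 genes that passed a filter on low counts, Tbata through its counts in the later groups, since it had none in MEF or at day 2. Psmb11, Prss16 and Ctsl encode peptidases, Ly75 and Cd83 encode surface proteins, and Tbata encodes a protein of thymic stroma and testis, so the group is one of cortical TEC genes rather than of proteases alone.

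Cortical TEC show self peptides to immature thymocytes, and thymocytes whose receptors bind these weakly are kept, a step called positive selection. The peptides come in part from machinery that few other cells have. Psmb11 is the catalytic subunit beta5t, which takes the place of Psmb5 or Psmb8 in the 20S proteasome and so makes the thymoproteasome, the source of peptides for MHC class I. Ctsl (cathepsin L, a lysosomal cysteine protease) and Prss16 (a thymus-specific serine protease) serve MHC class II. Foxn1 is the transcription factor that TEC need to form.

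The 13 RNA libraries fall into 6 groups. MEF without Cre (n = 2) came from E13.5 embryos and were labelled as untreated. Induced TEC (iTEC) were primary iFoxn1/+ MEF, which carry a Cre-inducible Foxn1, passaged at most 5 times and given the plasmid pPGK-Cre-bpA by nucleofection. They were sampled on day 2 (n = 2) and day 10 (n = 3), and on day 12 as cells sorted Epcam-negative (n = 2) or Epcam-positive (n = 2). Fetal TEC (n = 2) came from E15.5 thymus. The genotype field is blank for every sample, the protocol text is the same under all of them, and no source used here says how fetal TEC were isolated or how many animals gave each library. Nothing says that replicates were separate cultures or animals, so p-values measure the spread between these samples, which may be technical.

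Libraries held 35805780 to 86465460 counts. Levels below are CPM, counts scaled to library size with TMM factors. Across genes, CPM rose with transcript length in 10 libraries (Spearman rho 0.279 to 0.321) but not in Epcam-positive replicate 2 or the fetal TEC pair (rho -0.0709 to -0.0129). Xist stood at 688 to 2475 CPM in MEF and Epcam-negative libraries, where 4 Y-linked genes summed to at most 0.0144 CPM, and Xist stood at 0 to 1.27 CPM in day 2, day 10 and Epcam-positive libraries, where the Y-linked genes summed to 65.6 to 302 CPM. Fetal TEC held 6.17 and 10.6 CPM of Xist and 41.6 and 42.3 CPM of the Y-linked genes. Comparisons of MEF or Epcam-negative cells with any of the other 4 groups thus also differ in sex-linked genes, and the part of sex was not tested. Foxn1 itself measured 13 to 18.3 CPM in MEF and 292 to 468 CPM in every other library, counting transgene and native gene together. The 10 epithelial and TEC markers summed to 61.8 to 69.1 CPM in MEF, with Epcam, Krt5 and Krt14 at 0, to 3261 to 3531 CPM at day 10, to 1945 and 1949 CPM in Epcam-negative cells and to 16894 to 28071 CPM in fetal TEC. The Epcam-positive libraries stood apart from each other, replicate 1 with 3026 CPM of these and 33887 CPM of 12 fibroblast markers, and replicate 2 with 24947 and 3009 CPM. The fibroblast sum was 64448 to 70469 CPM in MEF, 9681 to 15870 CPM at day 2, at day 10 and in Epcam-negative cells, and 3040 to 4563 CPM in fetal TEC. The 20 macrophage and dendritic cell markers summed to 3220 to 3512 CPM in MEF (1 of 20, Flt3, at 0). Their sum was 17.2 to 18.3 CPM at day 2 and 20.6 to 21 CPM at day 10 (11 of 20 at 0 in each) and 15.6 to 20.5 CPM in Epcam-negative cells (10 of 20 at 0). The macrophage marker Adgre1 went from 117 and 154 CPM in MEF to no count in these 3 groups, while the dendritic cell marker Xcr1 rose from 0.166 and 0.0802 CPM in MEF to 5.11 and 4.52 CPM at day 2 (log2 5.25, adjusted p = 0.007, and 0.0809 without MEF replicate 2). The sum of the 20 macrophage and dendritic cell markers was 248 and 79 CPM in Epcam-positive replicates 1 and 2, and 559 to 568 CPM in fetal TEC (1 of 20, Itgax, at 0). The 16 thymocyte markers summed to 688 to 1507 CPM in fetal TEC, with none at 0, and to at most 23.8 CPM elsewhere. In such bulk RNA, fewer cells of a type and less RNA per cell cannot be told apart.

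**Figure D1:**
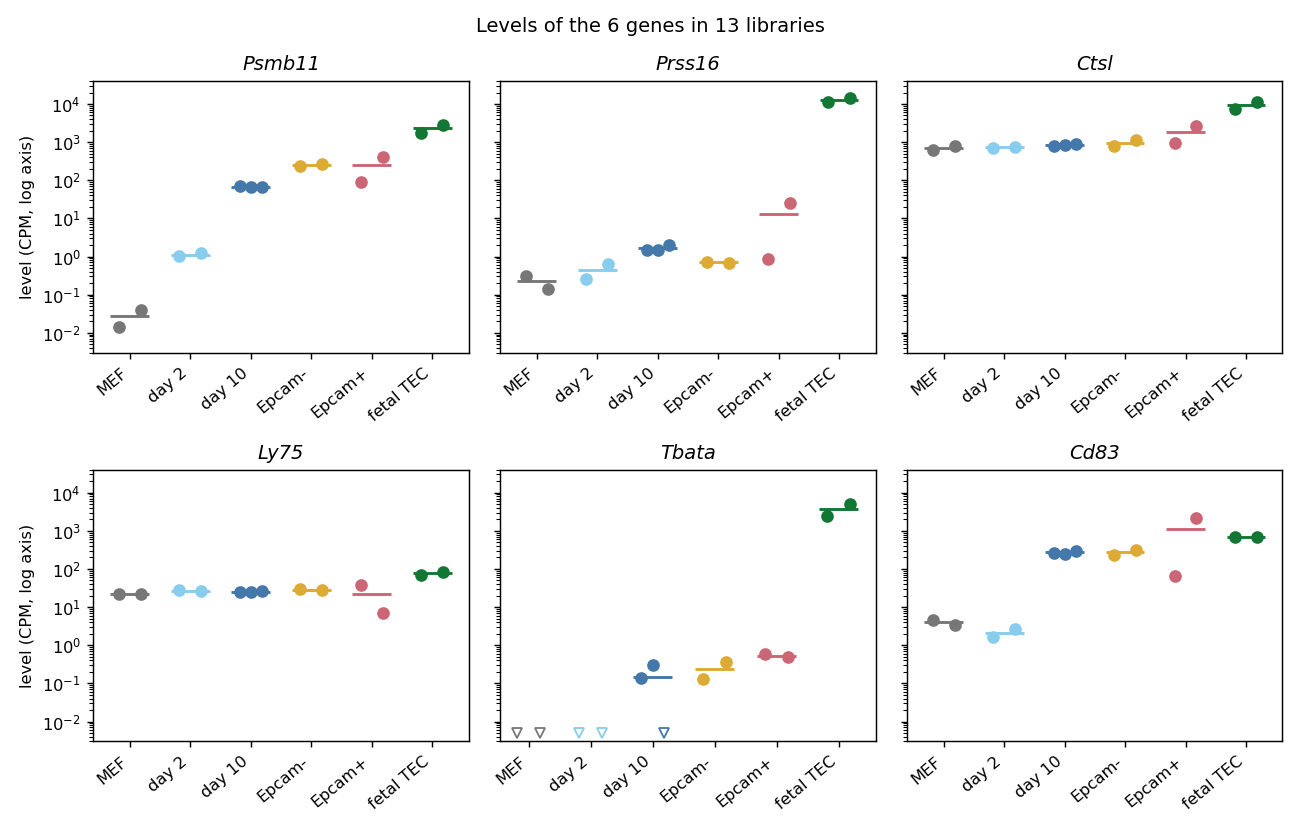
Level of each gene in each library, in CPM on a log axis, with a line at the group mean and an open triangle at the bottom for a library with no count. Psmb11 climbs in steps from 0.0138 and 0.0401 CPM in MEF to 1786 and 2834 CPM in fetal TEC, Cd83 goes from under 5 CPM to 254 to 299 CPM between day 2 and day 10, and Prss16 and Tbata stand far apart in fetal TEC.

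Psmb11, the thymoproteasome subunit (mm10 chr14:54621433-54629556, plus strand), rose from MEF to day 2 and again from day 2 to day 10. Its MEF levels were 0.0138 and 0.0401 CPM, which is 1 and 2 counts. At day 2 it measured 1.02 and 1.22 CPM, and at day 10 it measured 70.7, 66.3 and 66.7 CPM. No library of one time overlapped with another, and the day 10 replicates lay close together.

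The day 12 cells reached higher values, at 239 and 265 CPM in the Epcam-negative pair and 91.9 and 398 CPM in the Epcam-positive pair. Fetal TEC held 1786 and 2834 CPM. The Epcam-positive replicates lay on either side of the Epcam-negative pair, and both pairs lay above day 10 and below fetal TEC.

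From MEF to day 2, Psmb11 rose 46.3-fold, a log2 ratio with a 95% counting interval of 3.95 to 7.83 from the 3 MEF counts (fitted log2 change 5.37 ± 0.82 standard error, adjusted p = 0.00504). It was the 1 of 6 members called there, where 5.52% of all tested genes were called (2.87% as higher). The call rests on a few MEF counts and was lost without MEF replicate 1 (28.3-fold, adjusted p = 0.0685), while the ratio without MEF replicate 2 was 82.2-fold. From day 2 to day 10, Psmb11 rose by log2 5.92 ± 0.68 (adjusted p = 0.000641), and from MEF to day 10 it rose 2788-fold (interval 954 to 13520, adjusted p = 9.35e-05, and 1706-fold or 4951-fold without MEF replicate 1 or 2). Fetal TEC exceeded day 10 by log2 5.09 ± 0.56 (adjusted p = 0.000159) and Epcam-negative cells by log2 3.20 ± 0.61 (adjusted p = 0.00312, in a comparison where 52.9% of all tested genes were called).

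Epcam-negative cells held 3.71 times the day 10 level of Psmb11 (log2 1.89 ± 0.51), a difference that the fit of 13 libraries did not call (adjusted p = 0.377). It was called when only these groups were fitted (adjusted p = 1.24e-05), without either Epcam-positive library (adjusted p = 0.00319 without replicate 1 and 0.00315 without replicate 2) and by DESeq2 (adjusted p = 0.0495). The Epcam-positive pair is not in this comparison but adds to the spread that the fit shares between groups.

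The sequence before the Psmb11 start is shown because Psmb11 rose early and Foxn1 is known to bind sites with the core GACGC. In the 250 bases upstream of the start in RefSeq (build GRCm38.p6, plus strand), a search of both strands found 2 matches to GACGC, which reads GCGTC on the strand shown. They are printed with 10 bases on either side and the match in capitals, and their first bases lie 239 and 62 bases upstream of the start.
Psmb11, chr14:54625061-54625085: ctgacaggtgGCGTCttcagagtgt
Psmb11, chr14:54625238-54625262: cttctccacaGCGTCctcctcctcc
GENCODE also lists a Psmb11 transcript that begins at 54621433, and both matches fall in its 5′ UTR. Of 32851 promoter windows of this length, 22.6% held at least 1 match and 5.86% held 2 or more, so such a match is common and is not shown to be a bound site. RefSeq windows were found for 4 of the 6 members. Those of Ctsl, Ly75 and Tbata had no GACGC. The shorter ACGC, which every GACGC contains and 49.8% of windows held, matched 2 times for Ctsl (247 and 15 bases upstream), 1 time for Ly75 (23 bases upstream) and not for Tbata. The whole Ctsl window and the Ly75 match lie inside the spans that GENCODE gives these genes.

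Psmb11 competes with 2 other subunits for the beta5 place, so its part of the 3 transcripts was taken per kilobase of transcript. Psmb11 made up 0.00504 and 0.0312% of these counts in MEF, 0.191 and 0.177% at day 2, and 15.1, 14.3 and 14.2% at day 10. It made up 33 and 35.1% in Epcam-negative cells, 16.3 and 6.83% in Epcam-positive cells, and 36.2 and 42.7% in fetal TEC. The Epcam-negative pair lay just under the fetal TEC pair, and the Epcam-positive libraries lay on either side of day 10. Division by length presumes a length bias that fetal TEC and Epcam-positive replicate 2 lacked. Undivided, the share was 43 to 44.7% at day 10, and the Epcam-negative pair (69.5 and 71.5%) overlapped with fetal TEC (68.7 and 75.4%).

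Beside the low share in Epcam-positive replicate 2 stood a Psmb5 level of 1142 CPM, against 93.2 CPM in replicate 1 and 101 CPM in both Epcam-negative libraries. Psmb5 is the constitutive subunit, and its share in Epcam-positive replicate 2 was 92.5%. Exact permutation tests of the Psmb11 share gave two-sided p = 0.2 for day 10 against MEF (n = 3 and 2) and p = 0.333 between groups of 2, the smallest p that these sizes allow.

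**Figure D2:**
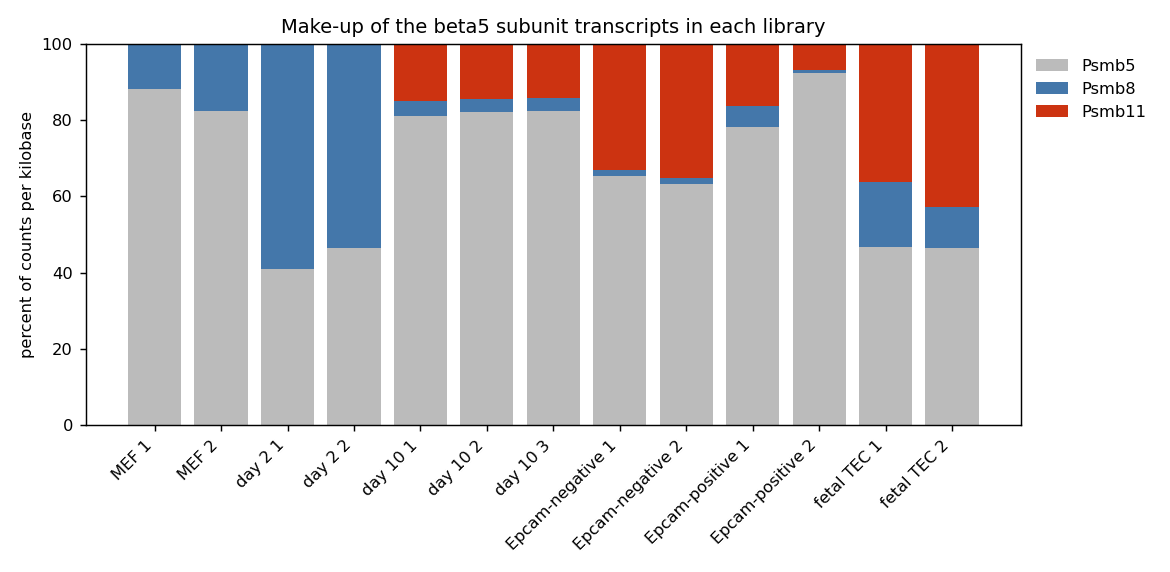
Make-up of the beta5 transcripts in each library, as percent of the counts per kilobase of Psmb5 (constitutive), Psmb8 (immunoproteasome) and Psmb11 (thymoproteasome). Psmb8 fills 58.8 and 53.4% at day 2 and 3.29 to 3.77% at day 10, where Psmb11 takes 14.2 to 15.1%.

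The immunoproteasome, the form that interferon induces in most cells, rose with Psmb11 to day 2 and then fell. Psmb8, its beta5 subunit, measured 12.3 and 8.6 CPM in MEF, 120 and 142 CPM at day 2 and 6.78, 6.15 and 5.95 CPM at day 10. The day 2 pair stood above all other libraries except fetal TEC (323 and 276 CPM). Psmb8 rose by log2 3.64 ± 0.30 from MEF to day 2 (adjusted p = 0.000203) and fell by 4.38 on the log2 scale from day 2 to day 10 (adjusted p = 4.12e-05), while Psmb11 rose in both steps.

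Psmb9 and Psmb10, the other inducible subunits, also rose from MEF to day 2 (log2 4.17 ± 0.52, adjusted p = 0.00165, and log2 4.23 ± 0.59, adjusted p = 0.00311). From day 2 to day 10, Psmb9 fell by 2.95 on the log2 scale (adjusted p = 0.00191) and Psmb10 fell by 2.42 (adjusted p = 0.00889). The fall of Psmb10 was lost with the replicate block (adjusted p = 0.0651) and without day 2 replicate 2 (adjusted p = 0.0756). Of 8 catalytic and immunoproteasome genes, 4 rose and 0 fell from MEF to day 2 (median log2 1.80, beside 0.00 over all tested genes), where 2.87% of all tested genes were called higher, and 0 rose and 5 fell from day 2 to day 10 (median log2 -1.76, beside 0.02), where 4.41% of all tested genes were called lower. The count of 5 came to 3 or 2 without day 2 replicate 1 or 2. None of the 16 structural subunits and assembly factors of the 20S core, which every proteasome form needs, was called in either step (0 of 16, edgeR). Fetal TEC exceeded day 10 for 7 of the 8 and for 16 of the 16 (11 of 16 with a length offset), where 31.7% of all tested genes were called higher. Psmb8 had the smallest p (log2 5.57 ± 0.28, adjusted p = 7.16e-06), and Psmb9 changed more (log2 6.97 ± 0.49, adjusted p = 1.63e-05). Psmb5 (log2 2.81 ± 0.76, adjusted p = 0.0115) lost its call with the length offset (log2 1.33, adjusted p = 0.0761) and without fetal TEC replicate 2 (adjusted p = 0.0522).

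Ctsl, which trims the invariant chain in cortical TEC, was abundant in MEF already and was not called in day 2 or day 10 against MEF. On mm10 it lies on the minus strand at chr13:64359337-64370890. It measured 610 and 783 CPM in MEF, 716 and 747 CPM at day 2, and 807, 817 and 871 CPM at day 10. Day 2 lay inside the MEF range and day 10 lay just above it.

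On day 12 it measured 790 and 1116 CPM in Epcam-negative cells and 931 and 2662 CPM in Epcam-positive cells, and fetal TEC held 7520 and 11536 CPM. Only the fetal TEC pair stood clear of all other libraries. Day 10 against MEF gave log2 0.26 ± 0.43 (adjusted p = 0.775), and fetal TEC exceeded day 10 by log2 3.52 ± 0.44 (adjusted p = 0.000306) and Epcam-positive cells by log2 2.41 ± 0.49 (adjusted p = 0.00605, but 0.287 in a fit of only those groups). The annotation places an antisense gene and a processed pseudogene on Ctsl exons, neither of which is in the count table. No source used here says whether counting used strand.

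Macrophages and dendritic cells use Ctss (cathepsin S) for the step that cortical TEC leave to Ctsl, so the 2 proteases were set side by side per kilobase. Ctsl made up 72.4 and 70.6% of their sum in MEF, 97.8 and 97.4% in fetal TEC, and 97.6% in Epcam-positive replicate 1. It made up 100% in 7 of the 8 other libraries, and in day 2 replicate 2 the Ctss share was 0.0202%. Ctss stood at 160 and 224 CPM in MEF, against 116 and 214 CPM for fetal TEC. The libraries with more Ctss are those with the larger sums of macrophage and dendritic cell markers, apart from Epcam-positive replicate 2 (79 CPM of markers, Ctss at 0). How far such cells contributed to Ctsl in MEF, or other cells to Ctsl at day 2 (716 to 747 CPM), was not tested.

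**Figure D3:**
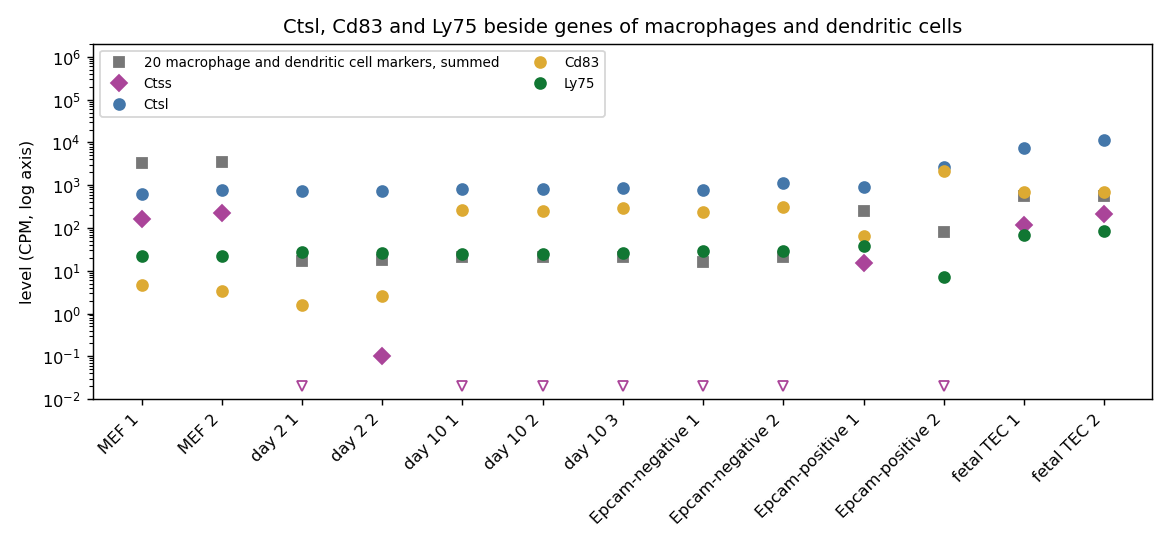
Ctsl, Cd83 and Ly75 in each library beside Ctss and the sum of 20 macrophage and dendritic cell markers, in CPM on a log axis, with an open triangle where Ctss had no count. The marker sum is 3220 to 3512 CPM in MEF and at most 21 CPM at day 2, at day 10 and in Epcam-negative cells. Ctsl lies between 610 and 1116 CPM in these groups, and the part of macrophages and dendritic cells in it was not tested.

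Among 18 other endosomal and lysosomal proteases and inhibitors, 0 rose and 3 fell from MEF to day 2, where 2.65% of all tested genes were called lower. They were Lgmn (legumain), Ctsc and Ctsb, of which Lgmn fell from 319 and 471 CPM to 69.4 and 68.2 CPM (by 2.52 on the log2 scale, adjusted p = 0.000858). The falls of Ctsc and Ctsb were lost without either day 2 library. Without Epcam-positive replicate 1 or 2, 8 of 18 were called lower, with no share over all tested genes given for that setting. From MEF to day 10, 1 rose and 5 fell (6.58% of all tested genes were called lower), and Ctsc fell by 5.17 on the log2 scale (adjusted p = 5.39e-05). The 5 became 3 without MEF replicate 2 and 8 without Epcam-positive replicate 1 or 2. Ctsc, Lgmn and Ctsb are genes that macrophages also express. The macrophage marker sum fell in the same steps, and its part in these falls was not tested. Fetal TEC exceeded day 10 for 8 of 18 and lay below it for 2 (31.7% of all tested genes were called higher and 27.6% lower), with Cstb, an inhibitor of cathepsins, higher by log2 4.10 ± 0.43 (adjusted p = 0.000126).

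Prss16, the thymus-specific serine protease (chr13:22002173-22009742, minus strand), stayed within a few CPM in all but 1 of the programmed libraries. It measured 0.304 and 0.14 CPM in MEF, 0.254 and 0.65 CPM at day 2, and 1.5, 1.51 and 1.97 CPM at day 10. Day 10 lay above the earlier libraries without overlap, on 59 to 97 counts a library.

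It measured 0.718 and 0.691 CPM in Epcam-negative cells and 0.874 and 24.7 CPM in Epcam-positive cells. Fetal TEC held 11557 and 14182 CPM. Epcam-positive replicate 2 stood far above its partner and every other programmed library, yet at a small part of the fetal TEC level.

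Day 10 exceeded MEF by log2 2.86 ± 1.12, which was not called (adjusted p = 0.12), though it was called by DESeq2 (adjusted p = 0.0177) and without Epcam-positive replicate 1 or 2 (adjusted p = 0.000891 and 0.000898). Epcam-positive against Epcam-negative cells gave log2 4.17 ± 1.18 (adjusted p = 0.187), which rests on Epcam-positive replicate 2. Without it the value was log2 0.31, and with it as the lone library of its group log2 5.13. Fetal TEC exceeded day 10 by log2 12.92 ± 1.38 (adjusted p = 0.000137) and Epcam-positive cells by log2 9.98 ± 1.50 (adjusted p = 0.00146, but 0.0901 in a fit of only those groups), a value of 13.83 without Epcam-positive replicate 2 and 9.01 without replicate 1. As percent of the fetal TEC mean, Prss16 stood at 0.0129% at day 10 and 0.0994% in Epcam-positive cells, where Psmb11 stood at 2.94 and 10.6%.

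Prss16 and Ctsl feed MHC class II, so the genes of that pathway were followed as well. Of 14 class II and loading genes, 9 were tested. From MEF to day 10, 2 of the 9 rose, where 9.42% of all tested genes were called higher. Cd74, the invariant chain that Ctsl cuts, measured 0.124 and 0.1 CPM in MEF and 13.6, 10.8 and 11.4 CPM at day 10 (log2 6.69 ± 0.81, adjusted p = 0.00065). The class II transactivator Ciita was at 0 in MEF and at 0.372, 0.179 and 0.388 CPM at day 10. In fetal TEC, Cd74 stood at 19476 and 41833 CPM (log2 11.33 ± 0.78 above day 10, adjusted p = 1.61e-05) and H2-Ab1, a class II beta chain, at 17642 and 28335 CPM (log2 15.91 ± 1.01, adjusted p = 1.09e-05). Fetal TEC exceeded day 10 for 5 of the 9 and lay below it for 1, where 31.7% of all tested genes were called higher and 27.6% lower.

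Cd83, a surface protein that keeps MHC class II on cortical TEC, rose between day 2 and day 10, and its day 10 mean was nearer to that of fetal TEC than for any other member. On mm10 it lies on the plus strand at chr13:43784775-43803132. It measured 4.52 and 3.45 CPM in MEF, 1.6 and 2.61 CPM at day 2, and 269, 254 and 299 CPM at day 10. Day 2 lay below MEF without overlap, and all day 10 libraries stood far above both.

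The sorted cells held 235 and 309 CPM (Epcam-negative) and 66.3 and 2150 CPM (Epcam-positive), and fetal TEC held 699 and 696 CPM. The Epcam-positive replicates thus lay below day 10 and above fetal TEC, while the Epcam-negative pair lay around day 10. Day 10 exceeded MEF by log2 6.10 ± 1.23 (adjusted p = 0.00947) and day 2 by log2 7.02 ± 1.29 (adjusted p = 0.0069), higher in 3 of 3 libraries each. Both calls needed each library of the lower group: they were lost without MEF replicate 1 or 2 and without day 2 replicate 1 or 2, which left 1 library there. The size of the rise changed little, at log2 6.29 and 5.92 against MEF and 6.71 and 7.42 against day 2. Day 2 against MEF was not called (log2 -0.92 ± 1.03, adjusted p = 0.793). It was called as lower without the length-skewed libraries (log2 -0.84) and without Epcam-positive replicate 1 or 2 (log2 -0.92 for either).

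Fetal TEC against day 10 was not called for Cd83 (log2 1.35 ± 0.91, adjusted p = 0.219), and day 10 stood at 39.3% of the fetal TEC mean. The difference was called in the fit of these groups alone (adjusted p = 0.000236) and without Epcam-positive replicate 1 or 2 (adjusted p = 0.000476 and 0.000499). Against Epcam-positive cells the sign depended on the library, with log2 3.38 without Epcam-positive replicate 2 and log2 -1.64 without replicate 1. Each of these fits left 1 Epcam-positive library, so no p-value is given. Mature dendritic cells also carry Cd83. At day 10, 11 of 20 macrophage and dendritic cell markers, among them Itgax and Flt3, were at 0, but Itgax stood at 0.705 and 0.381 CPM and Flt3 at 0 in MEF already. Xcr1, a dendritic cell marker of the list, went the other way, from 0.166 and 0.0802 CPM in MEF to 4.16, 4.79 and 4.78 CPM at day 10 (log2 5.18 ± 0.84, adjusted p = 0.00323). From day 2, where it measured 5.11 and 4.52 CPM, Xcr1 did not rise (log2 -0.07 ± 0.65). In that step 0 of the 20 markers were called, where 12.6% of all tested genes were. Itgam and Ptprc, with no count at day 2, stood at 1.82 to 2.12 CPM and 1.37 to 1.58 CPM at day 10. The part of such cells in the rise of Cd83 was not tested.

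Ly75 (DEC-205, an endocytic receptor of cortical TEC and dendritic cells, chr2:60292103-60383303, minus strand) was not called in any comparison among MEF and programmed cells. It measured 21.9 and 22.5 CPM in MEF, 28.1 and 25.7 CPM at day 2, and 25.1, 25.1 and 26.3 CPM at day 10. Day 2 and day 10 lay above MEF without overlap, by a few CPM.

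It measured 29.4 and 28.4 CPM in Epcam-negative cells, 37.3 and 7.14 CPM in Epcam-positive cells, and 68.4 and 84.2 CPM in fetal TEC. Epcam-positive replicate 2 was the lowest of the 13 libraries and the fetal TEC pair the highest. Day 10 against MEF gave log2 0.20 ± 0.52 (adjusted p = 0.879). Day 2 against MEF was called as higher without the length-skewed libraries (log2 0.34, adjusted p = 0.0418), and Epcam-negative against day 10 in a fit of those groups alone (log2 0.18, adjusted p = 0.0427). Fetal TEC exceeded MEF by log2 1.78 ± 0.58 (adjusted p = 0.0263) and day 10 by log2 1.58 ± 0.51 (adjusted p = 0.0238). Both calls were lost with scaling by library size alone (adjusted p = 0.0702 and 0.0991) and without any 1 library of the groups compared (adjusted p of 0.0528 to 0.113). An antisense gene overlaps Ly75 exons and is not in the count table.

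Tbata (thymus, brain and testes associated, chr10:61171954-61188841, plus strand) stood near 0 in every group but fetal TEC. It had no count in either MEF or day 2 library, and measured 0.139, 0.307 and 0 CPM at day 10. Epcam-negative cells held 0.129 and 0.36 CPM, Epcam-positive cells 0.575 and 0.488 CPM, and fetal TEC 2478 and 5057 CPM. The day 10 values stand for 9, 12 and 0 counts, and every programmed library lay below 1 CPM.

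Fetal TEC held at least 146136-fold more Tbata than MEF, from a floor of 3 counts over the MEF group, and log2 14.61 ± 1.22 more than day 10 (adjusted p = 0.000121). The bound covers counting error only and fell to 59618-fold without MEF replicate 1 and 86519-fold without MEF replicate 2. Day 10 exceeded MEF at least 6.01-fold (2.45 to 8.26 with a library left out) and was not called (adjusted p = 0.0842). It was called by DESeq2 (adjusted p = 0.00616), with the replicate block (adjusted p = 0.0254) and without day 10 replicate 3 (adjusted p = 0.0303), the library with no count. The stretch upstream of Tbata is shown because, unlike that of Psmb11, it holds neither GACGC nor ACGC on either strand, and it ends where the first annotated exon begins (RefSeq, GRCm38.p6, plus strand).
Tbata, chr10:61171714-61171953: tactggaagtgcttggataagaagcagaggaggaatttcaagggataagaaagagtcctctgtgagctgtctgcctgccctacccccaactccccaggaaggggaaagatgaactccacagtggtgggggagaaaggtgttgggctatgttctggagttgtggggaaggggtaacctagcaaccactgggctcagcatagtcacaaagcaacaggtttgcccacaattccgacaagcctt
That these letters are missing says nothing of binding elsewhere at the gene.

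Across the 6 members, day 10 against MEF called 2 of 6 (Psmb11 and Cd83), where 16% of all tested genes were called (9.42% as higher). The median log2 change of the members was 4.48 as fitted and 2.72 with Tbata at its lower bound, beside 0.00 over all tested genes. Day 10 against day 2 called the same 2 of 6, against 12.6% of all tested genes (8.24% as higher, median log2 3.89 as fitted and 2.28 with Tbata at its bound, beside 0.02). These comparisons share the day 10 libraries. In each, the 2 called members lay without overlap between groups, but so did members that were not called. These were Prss16, Ctsl and Ly75 against MEF, and Prss16 and Ctsl against day 2. How many of all tested genes lay without overlap was not counted, so lying without overlap, here or above, is not read as a result about the members.

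**Figure D4:**
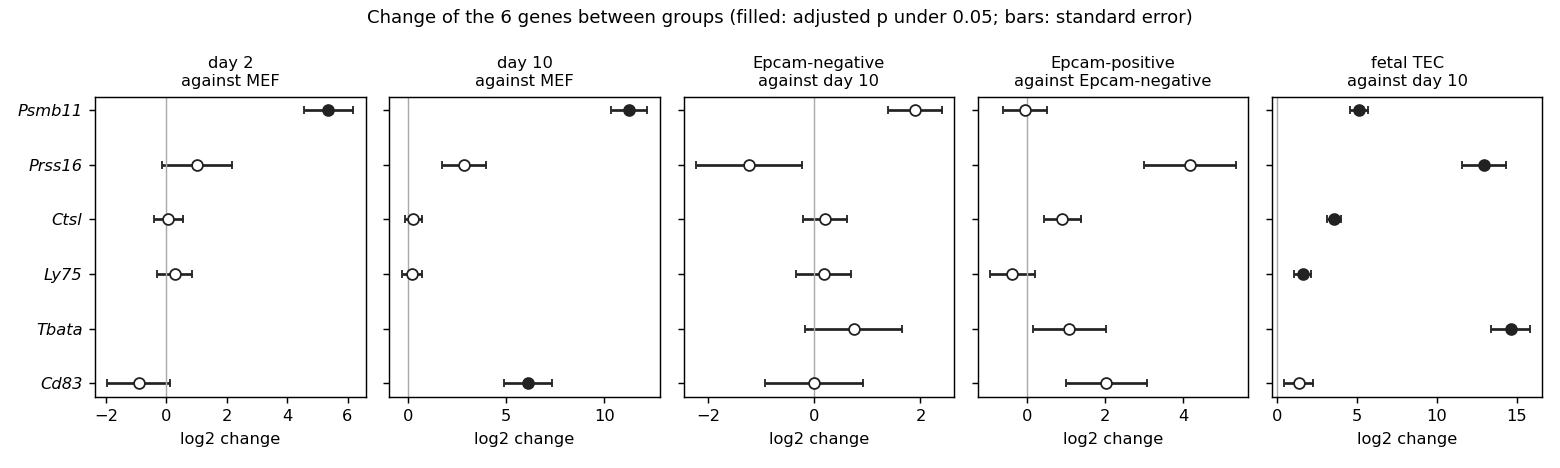
Log2 change of each gene with its standard error in 5 comparisons from the edgeR fit, filled where the adjusted p was under 0.05, each panel with its own axis. Tbata is left out of both comparisons with MEF, where it had no count. Psmb11 is filled in 3 panels, Cd83 in the day 10 panel alone, and 5 of the 6 genes in the fetal TEC panel.

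No member was called between the sorted groups or between Epcam-negative cells and day 10. Epcam itself measured 0.56 and 0.29 CPM in Epcam-negative cells and 4.8 and 30.6 CPM in Epcam-positive replicates 1 and 2. It measured 5.03 to 5.53 CPM in unsorted cells at day 10 and 312 and 574 CPM in fetal TEC, so replicate 1 lay no higher than unsorted day 10. Xist stood at 923 and 688 CPM in Epcam-negative libraries, at 1.27 and 0 CPM in Epcam-positive libraries and at most 0.0619 CPM at day 10. The 4 Y-linked genes summed to at most 0.0144 CPM in Epcam-negative libraries, to 226 and 65.6 CPM in Epcam-positive libraries and to 292 to 302 CPM at day 10. Epcam-negative cells thus read as female and both other groups as male, so they do not come from the same embryos. The sorted groups are therefore not 2 fractions of the same cells. The part of sex, of the Epcam gap and of the fibroblast marker sums of 33887 and 3009 CPM in the values below was not tested. Epcam-negative against day 10 called 0 of 6, where 0.0882% of all tested genes were called. At an unadjusted p under 0.05 there was 1 (Psmb11), DESeq2 called 1, and a fit of only these groups called 3 (Psmb11 and Ly75 higher, Prss16 lower). Epcam-positive against Epcam-negative called 0 of 6 (0.259% of all tested genes), with 1 at an unadjusted p under 0.05 (Prss16) and 1 by DESeq2. The Epcam-positive replicates differed from each other by more CPM than the means of the sorted groups did for 5 of 6 genes, Tbata being the exception. Leaving out 1 Epcam-positive library left the other as the lone library of its group, so only log2 changes are given. Without replicate 1, which left the length-skewed replicate 2, they were Prss16 5.13, Cd83 2.98, Ctsl 1.48, Psmb11 0.66 and Ly75 -2.02. Without replicate 2, they were Ly75 0.37, Prss16 0.31, Ctsl -0.03, Psmb11 -1.46 and Cd83 -2.04. Tbata ran from 0.56 to 2.03 with any 1 library left out. Cd83 thus went in opposite directions with the 2 replicates.

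Fetal TEC against MEF called 6 of 6, where 57.8% of all tested genes were called (31.5% as higher), with a median log2 change of 11.62 beside 0.18. Fetal TEC against day 10 called 5 of 6, all but Cd83, against 59.3% (31.7% as higher), with a median of 4.30 beside 0.10. Fetal TEC against Epcam-positive cells called the same 5 of 6, against 35.6% (16.4% as higher), with a median of 2.82 beside -0.17, but 1 of 6 (Tbata) in a fit of only these groups. Fetal TEC differed from the other groups in transcript length bias and in thymocyte markers too, and the part of either in these differences was not tested. With a length offset in the fit, the counts were 6, 5 and 5.

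**Figure D5:**
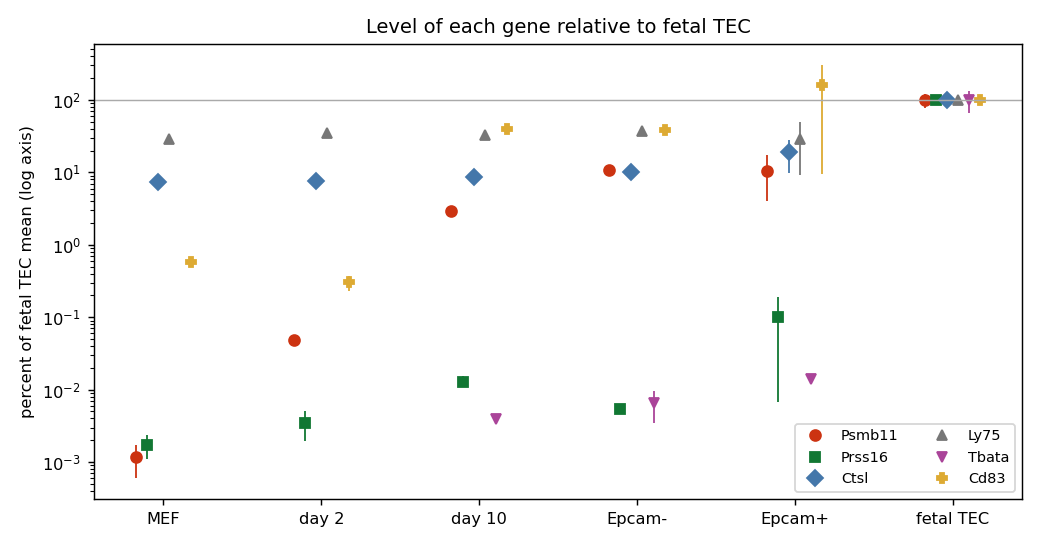
Group mean of each gene as percent of its fetal TEC mean, on a log axis, with lines from the lowest to the highest library where none is at 0. At day 10 the genes spread from 0.00395% for Tbata to 39.3% for Cd83.

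Relative to fetal TEC, the members were spread widely at day 10. Cd83 stood at 39.3% of the fetal TEC mean, Ly75 at 33.4%, Ctsl at 8.73%, Psmb11 at 2.94%, Prss16 at 0.0129% and Tbata at 0.00395%. Ly75 and Ctsl were already at 29.1 and 7.31% in MEF, while Cd83 and Psmb11 started from 0.571 and 0.00117%. In Epcam-negative cells, Psmb11 reached 10.9% (10.4 to 11.5) and Ctsl 10% (8.3 to 11.7), which overlap.

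Ranked per kilobase of transcript, the order of the members in programmed cells differed from that in fetal TEC. At day 10 it was Ctsl (422 CPM per kilobase), Cd83 (111), Psmb11 (16), Ly75 (4.93), Prss16 (0.77) and Tbata (0.123). In fetal TEC it was Prss16 (5972), Ctsl (4834), Tbata (3099), Psmb11 (544), Cd83 (282) and Ly75 (14.7). Prss16 and Tbata, the lowest pair at day 10, were thus in places 1 and 3 in fetal TEC. The difference between Prss16 and Ctsl in fetal TEC is within their spread (SD 861 and 1441, n = 2).

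The order of the groups also differed between the members. For Psmb11 it was MEF, day 2, day 10, Epcam-positive, Epcam-negative and fetal TEC. Neither the step from day 10 to Epcam-positive (log2 1.85, adjusted p = 0.0927) nor that between the sorted groups (log2 -0.04) was called. With a library left out, the first ran from log2 0.44 to 2.55, the highest value resting on Epcam-positive replicate 2 alone. For Prss16, Ctsl and Tbata the one step between neighbours that was called was that from Epcam-positive cells to fetal TEC. For Ly75 no step between neighbours was called, that from Epcam-negative cells to fetal TEC giving log2 1.40 (adjusted p = 0.0633). For Cd83 the called step was that from MEF to Epcam-negative cells (log2 6.09, adjusted p = 0.0136, where 11.9% of all tested genes were called), a call lost without MEF replicate 1 or 2 (adjusted p = 0.0908 and 0.134) or Epcam-negative replicate 2 (adjusted p = 0.0504), and no step above it was called.

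Genes whose pattern over the 13 libraries was most like that of a member were found by the root mean square difference (RMS) of centred log2(CPM + 0.5) among 13504 genes with at least 5 CPM in a group. For Psmb11 they were Ache (RMS 0.753), Nkain4 (1.42) and Hdc (1.52), and Cd83 stood in place 5 (1.58). Ache, the acetylcholinesterase gene, had group means of 0.0709 CPM in MEF, 0.336 at day 2 and 66.9 at day 10, then 107 and 171 in Epcam-negative and Epcam-positive cells and 578 in fetal TEC. For Cd83 they were Nkain4 (0.767), Lypd6b (0.829) and Stra6 (0.901), so Nkain4 was near to both genes. For Prss16 they were H2-Ab1 (0.867), Tbata (1.13) and Krt17 (1.30), and for Tbata Bpifa1 (0.593), H2-Aa (0.611) and Ccl21a (0.926), a gene with near-identical copies. Bpifa1 and Ccl21a were at 0 in every group but fetal TEC. For Ctsl they were Mccc1 (0.218), Mthfs (0.251) and Hist1h2ak (0.263), another gene with close copies. Hist1h2ak had group means of 0.166 to 0.593 CPM outside fetal TEC and 8.91 CPM there. At such levels the 0.5 added before the log narrows the changes, so its likeness to Ctsl is limited. For Ly75 they were Rfxank (0.258), Fgf13 (0.283) and Bckdhb (0.296). Psmb11 and Prss16, by the same measure, differed by 3.51.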

How the data were processed

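RNA of 13 mouse libraries was analysed from unscaled whole-number read counts per gene symbol as the authors deposited them. The submitters' processing notes name FastQC, Trimmomatic, HISAT2, SAMtools, StringTie, DESeq2 and the mm10 build, without order or settings. How multi-mapped reads and strand were handled is not stated there. The columns labelled No_Cre were read as MEF. Members, gene lists and tests were chosen with earlier results of these data known.

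The test was edgeR's quasi-likelihood F test (edgeR 4.0.16, R 4.3.3) on these counts. TMM factors ran from 0.705 to 1.16, filterByExpr worked by group, and 1 robust fit of the 13 libraries (6 group means, common dispersion 0.296) gave every contrast. P-values were Benjamini-Hochberg adjusted over 17004 genes and called under 0.05. The shares of all tested genes called belong to this fit and were not set beside counts from other settings. Standard errors are the log2 change over the root of its F. Where a group had no count, the fold is a lower bound from a floor of 3 counts over the group. Where it had 1 to 3, the ratio has a 95% exact counting interval. Named besides the 6 members are up to 4 genes with the smallest p of each list described, the genes of a share, and the 3 genes most like each member. Epcam, Adgre1, Itgax, Flt3, Xcr1 and the other markers were named after their values were seen.

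Transcript lengths (GENCODE M21) covered 95.7% of symbols, and upstream sequences came from RefSeq (GRCm38.p6). Alternatives were other scalings and filters, the Wald test of DESeq2 1.42.0, a fit of the compared groups alone, a fit without the length-skewed libraries (Epcam-positive replicate 2 and fetal TEC), a length offset, a replicate block and leaving out single libraries. The fits were tested on simulated data. Shares, likeness and figures used Python 3.11.15 (numpy 2.4.6, scipy 1.17.1, pandas 2.3.3, matplotlib 3.10.9).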

Additional observations from a re-analysis of the deposited data

How the results depend on the processing

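With each library left out in turn, the number of the 6 genes called was 0 to 2 for day 2 against MEF, 1 to 3 for day 10 against MEF and against day 2, 0 to 1 for Epcam-negative against day 10, 0 to 4 for Epcam-positive against Epcam-negative (the sort), 5 to 6 for fetal TEC against MEF and 4 to 6 for fetal TEC against day 10 and against Epcam-positive. Without the length-skewed libraries it was 3 for day 2 against MEF, 1 for Epcam-negative against day 10 and 2 for the sort. The DESeq2 Wald test called 4 for day 10 against MEF, 1 for Epcam-negative against day 10 and 1 for the sort. With only the groups compared, it was 3 for Epcam-negative against day 10 and 1 for fetal TEC against Epcam-positive. The share of all tested genes called in these settings is not given, so these counts cannot be set against the shares above. The cause was not tested.

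Replicate numbers were not used as pairs: no label says what they share, and same-numbered libraries of different groups correlated at -0.183 to 0.0973 in their deviations from the group means. With the replicate block, fetal TEC called 6 against MEF, 4 against day 10 and 4 against Epcam-positive cells. Day 10 called 3 against MEF and 3 against day 2, day 2 called 1 against MEF, and both day 12 comparisons called 0. The block left 3 catalytic and immunoproteasome genes lower at day 10 than day 2 and 3 endosomal proteases lower at day 10 than in MEF.

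Directions turned for small changes and with the Epcam-positive pair (log2 values, the cause not tested). Leaving out libraries moved Ctsl in day 2 against MEF from -0.09 (without MEF replicate 1) to 0.26. In Epcam-negative against day 10 it moved Ctsl from -0.07 to 0.43 and Tbata from -0.20 to 1.62 (lowest without Epcam-negative replicate 2), and Cd83 from -0.22 to 0.18. That Cd83 value was also 0.06 without day 10 replicate 3, 0.08 by library size alone, 0.01 with no filter and 0.00 with the block. In the sort, leaving out libraries moved Psmb11 from -1.46 to 0.66, Ctsl from -0.03 to 1.48, Ly75 from -2.02 to 0.37 and Cd83 from -2.04 to 2.98, with Epcam-positive replicates 1 and 2 at the ends. It moved Cd83 in fetal TEC against Epcam-positive from -1.64 to 3.38. In the sort, Psmb11 was also 0.03 without Epcam-negative replicate 2, 0.07 with DESeq2 size factors or its Wald test, 0.02 with only the groups compared and 0.66 with the length offset. Without skewed libraries, Ctsl was -0.07, Ly75 0.33 and Cd83 -2.07, and Ly75 was 0.03 with the length offset.

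Without division by length, the Psmb11 share was 0.0754, 0.594, 43.7, 70.5, 36.1 and 72% from MEF to fetal TEC, and the Ctsl share 78.5% in MEF and 98.3% in fetal TEC. Endosomal proteases lower at day 2 than in MEF numbered 5 with DESeq2, 6 with only the groups compared, 10 without skewed libraries and 1 to 8 with a library left out. Those lower at day 10 numbered 8, 9 and 3 to 8 in the last 3 settings. Catalytic and immunoproteasome genes lower at day 10 than day 2 numbered 2 to 5 with a library left out, and MHC class II genes higher at day 10 than in MEF numbered 4 with only the groups compared. Below about 1 CPM, as for Tbata in every programmed library and Prss16 in some of them, small counts limit the values.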
